A study of Rattus norvegicus with 9 samples.

Results

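10 genes that build or mark the blood-brain barrier were followed in the brain of rats with an occluded middle cerebral artery. They were chosen by symbol, and all 10 of 10 were found among the 22888 genes of the table: the transporters Slc2a1, Slc7a5, Slco1c1, Mfsd2a and Abcg2, the junction genes Cdh5, Tjp1 and Lsr, and the vesicle and fenestra genes Cav1 and Plvap. RNA was sequenced from 9 libraries of brain of male Sprague-Dawley rats, 3 per group, and the labels name neither a region nor a side of the brain. The sham group (libraries 1, 3 and 5) had the operation without the occlusion. The model group (libraries 1, 3 and 4) had this artery blocked in a single hemisphere, as in ischemic stroke, and the tissue was taken 1 day later. The astaxanthin group (libraries 1, 2 and 3) was occluded in the same way but had first been given astaxanthin by gavage for 7 days at 45 mg/kg, the medium dose of the study; astaxanthin is a carotenoid with antioxidant activity. The labels do not say that each library is a separate animal, so p-values measure only the spread between these samples, which may be technical.

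Brain capillaries are lined by endothelial cells that are sealed to each other by tight and adherens junctions, that carry few vesicles and have no fenestrae. Nutrients therefore enter through named carriers, and efflux pumps return many foreign compounds to the blood. In stroke the barrier is known to leak, through junctions that open and through increased vesicle transport. In bulk tissue fewer cells of a type and less RNA per cell cannot be told apart, and several of these genes are also made outside the endothelium.

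Promoter sequences were available from RefSeq (assembly GRCr8) for 7 of the 10 genes, in 8 entries. Shown here, 5′ to 3′ on the strand of the gene, are the 250 bases before the start of Slc2a1 and Slc7a5, the genes called higher after occlusion, of Cav1, the other gene whose promoter holds the letters ACGTG, and of Plvap, the gene with the widest range over the libraries. Capitals mark ACGTG on either strand, the core of the sites through which hypoxia-inducible factors are known to bind.
Slc2a1 chr5:138002272-138002521 (+ strand): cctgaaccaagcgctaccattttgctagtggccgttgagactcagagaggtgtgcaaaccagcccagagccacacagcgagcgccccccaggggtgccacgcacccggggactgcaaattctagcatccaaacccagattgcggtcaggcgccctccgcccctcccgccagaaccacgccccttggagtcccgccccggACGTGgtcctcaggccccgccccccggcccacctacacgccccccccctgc
Slc7a5 chr19:66872413-66872662 (- strand): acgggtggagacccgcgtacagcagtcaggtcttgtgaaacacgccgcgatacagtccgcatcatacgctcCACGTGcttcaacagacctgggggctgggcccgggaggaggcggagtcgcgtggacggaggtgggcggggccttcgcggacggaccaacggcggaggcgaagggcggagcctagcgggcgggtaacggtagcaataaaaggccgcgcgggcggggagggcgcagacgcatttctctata
Cav1, the first of its 2 entries, chr4:46606288-46606537 (+ strand): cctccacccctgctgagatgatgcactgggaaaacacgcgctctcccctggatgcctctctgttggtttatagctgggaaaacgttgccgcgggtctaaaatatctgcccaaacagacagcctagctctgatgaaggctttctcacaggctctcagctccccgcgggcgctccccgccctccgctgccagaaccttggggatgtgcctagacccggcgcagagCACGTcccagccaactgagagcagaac
Plvap chr16:18231280-18231529 (- strand): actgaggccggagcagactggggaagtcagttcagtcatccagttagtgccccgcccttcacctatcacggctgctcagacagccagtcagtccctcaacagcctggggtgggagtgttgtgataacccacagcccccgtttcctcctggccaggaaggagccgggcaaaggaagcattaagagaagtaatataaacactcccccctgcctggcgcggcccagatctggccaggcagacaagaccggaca
ACGTG begins 51 bases before the start in Slc2a1 and 27 bases before it in Cav1. In Slc7a5 the matches at 179 and 178 bases before the start lie on opposite strands and overlap as the palindrome CACGTG. Of the 8 promoters of these genes 3 held ACGTG, against 16.6% of the 33469 rat promoters of the same length. Of the other letters searched on both strands, the ETS core GGAAG was in 3 of 8 (63.3% of all), the TCF/LEF core CTTTGA in 1 of 8 (13.9%), the NF-kappaB letters, GGG and CC with 5 bases between, in 7 of 8 (42.3%) and the GC box GGGCGG in 6 of 8 (30.5%). Of the 8 promoters 7 were 59.2% to 68.4% GC, against a median of 51.2% over all promoters, and that of Tjp1 was 30.4%, so shares of GC-rich letters are not comparable at equal base composition. The GC box and the NF-kappaB letters can overlap each other. A match describes letters and does not show that a factor binds there.

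Recovered totals were 52268061 to 76311125 reads per library, and levels are given as normalized reads, which are reads divided by a factor of the library. The libraries differed in which tissue markers they held. Of 10 choroid plexus markers, 10 were in the table, and their summed level was 672 to 118365 normalized reads in sham, 3525 to 16172 in model and 7567 to 200258 in astaxanthin, with the maxima in sham 5 and astaxanthin 1 (Folr1, Prlr, Otx2, Cldn2 and Slc4a5 were each at 0 in 1 library). Of 9 cerebellum markers, 8 were in the table, and their sum was 245809 in astaxanthin 1 against 6339 to 19907 in the other libraries (Pcp2 was at 0 in 2 libraries and Gabra6 in 1). Model 3 had the highest sums of the 10 endothelial markers (51719.7 against 5875 to 12316 elsewhere), of 6 fibroblast markers (59343 against 7349.5 to 12718) and of 7 neutrophil markers (15075 against 177 to 996), and the lowest sum of 8 neuron markers (86313 against 219079 to 327783). None of the 10 endothelial markers was at 0 in any library. No cell type list was used to correct a value, and the part of these differences in the results below was not tested.

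**Figure D1:**
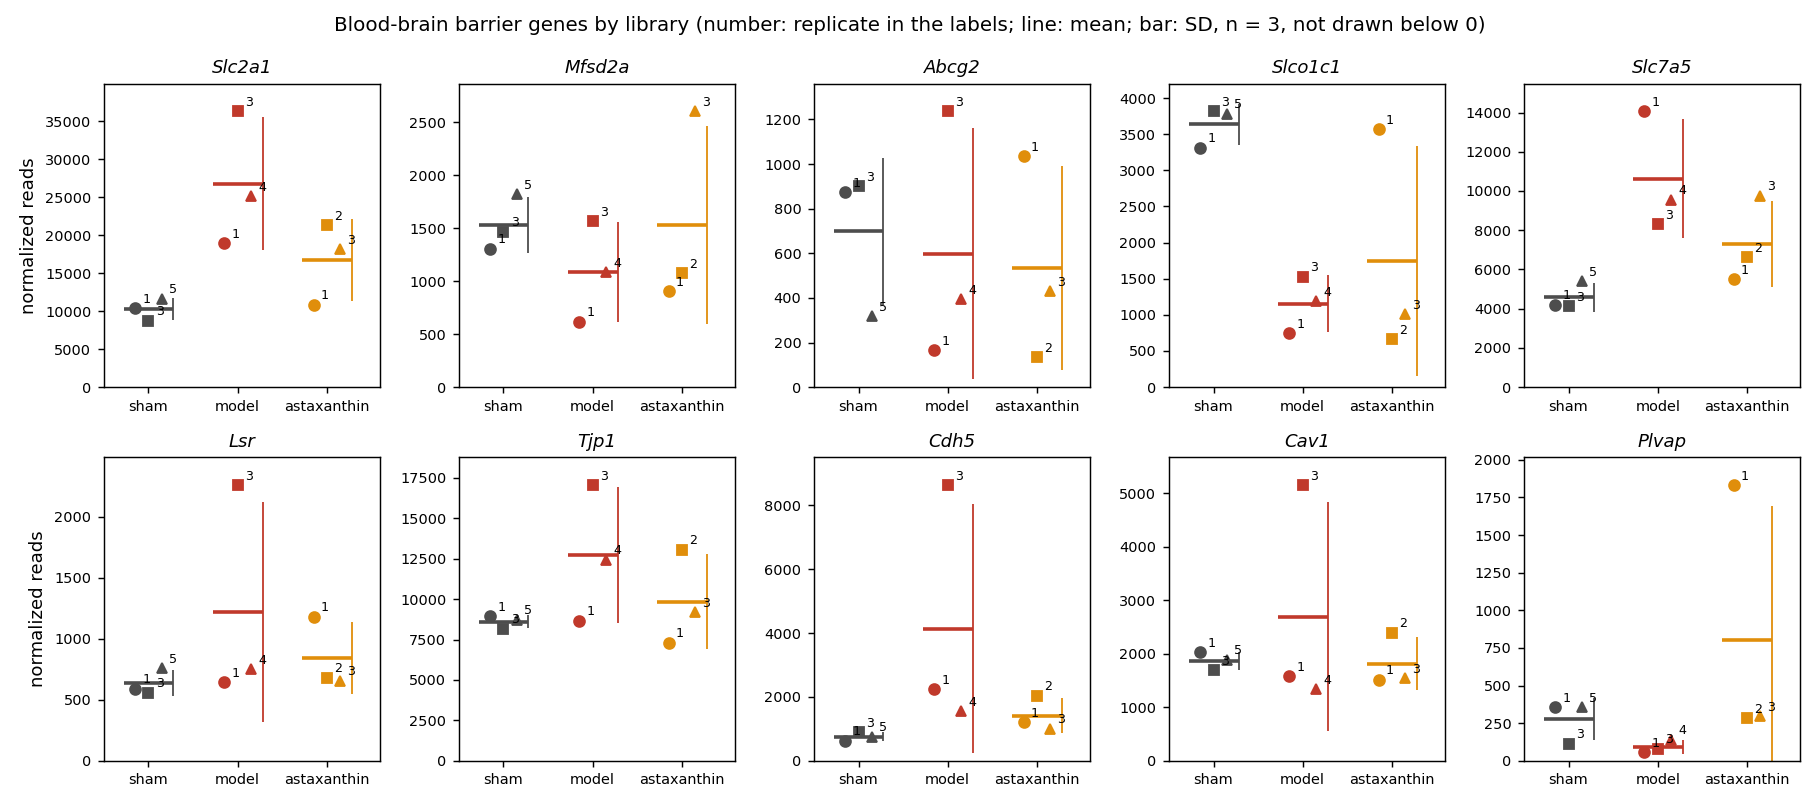
Normalized reads (linear axis, from 0) of each of the 10 genes in the 9 libraries, by group; numbers are the replicate numbers of the labels, the horizontal line is the mean and the bar the SD (n = 3). Slc2a1 and Slc7a5 were higher in all model than in all sham libraries, Slco1c1 was lower, and model 3 was the highest library for 6 of the 10 genes.

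After occlusion the 10 genes did not move one way. The glucose carrier Slc2a1 and the amino acid carrier Slc7a5 rose, 2.54-fold and 2.29-fold, and the endothelial cadherin Cdh5 was higher in every model than in every sham library without passing the threshold. The thyroid hormone carrier Slco1c1 was lower in every model library, 3.29-fold on average, also without passing it. By limma over 17770 tested genes, at an adjusted p under 0.05, 2 of the 10 were called higher and 0 lower, beside 3.45% of all genes called higher and 1.32% called lower (4.77% in all). EdgeR called 2 of the 10 (4.24% of all genes), and DESeq2, which gave no adjusted p for Plvap, called 4 of the other 9 (16.4%). The 4 genes named were those whose model and sham libraries did not overlap, 3 higher (19.0% of all genes) and 1 lower (16.6%), or 4 of 10 against 35.6% of all genes. The median log2 fold change of the 10 genes was 0.38, against 0.02 over all genes tested, and 4 of 10 had an unadjusted p under 0.05, as did 23.8% of all genes.

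Among the carriers of nutrients, Slc2a1 (chr5:132717196-132745416 in the deposited table, build rn7) encodes GLUT1, which brings glucose across the barrier and is also made by astrocytes. It was at 10421, 8734 and 11665 normalized reads in sham 1, 3 and 5, at 18959, 36321 and 25123 in model 1, 3 and 4, and at 10831, 21307 and 18123 in astaxanthin 1, 2 and 3. All model libraries were above all sham libraries, while astaxanthin 1 lay among the sham libraries and astaxanthin 2 within the model range. The means were 10273 ± 1471 in sham, 26801 ± 8802 in model and 16754 ± 5371 in astaxanthin (SD, n = 3, as for the levels that follow). The log2 fold change was 1.34 ± 0.31 (SE) for model against sham, with an adjusted p of 0.0480 by limma, 0.0466 by edgeR and 0.000917 by DESeq2. This call was close to the threshold: of the 9 fits that left out 1 library, the fit without astaxanthin 1 (adjusted p = 0.0233) kept it and the other 8 did not, with adjusted p from 0.0606 to 0.164 and log2 fold changes from 1.10 to 1.57. For astaxanthin against model it was -0.68 ± 0.31 (adjusted p = 0.567) and for astaxanthin against sham 0.66 ± 0.31 (adjusted p = 0.433).

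Slc7a5 (chr19:49935220-49963823) encodes LAT1, the carrier of large neutral amino acids. Its values were 4193, 4121 and 5395 in sham 1, 3 and 5, 14068, 8292 and 9549 in model 1, 3 and 4, and 5509, 6621 and 9759 in astaxanthin 1, 2 and 3. Each of the 6 libraries with an occlusion was above the highest sham library, and model 1, not model 3, was the highest. The means were 4569.7 ± 715 in sham, 10636 ± 3037 in model and 7296 ± 2204 in astaxanthin. Model against sham gave a log2 fold change of 1.19 ± 0.27, with an adjusted p of 0.0450 by limma, 0.0452 by edgeR and 0.00123 by DESeq2. The call was kept without astaxanthin 1 (0.0300) and without astaxanthin 3 (0.0424) and lost without any other single library, with adjusted p from 0.0507 to 0.158. Astaxanthin against model gave -0.55 ± 0.27 (adjusted p = 0.567) and astaxanthin against sham 0.64 ± 0.27 (adjusted p = 0.388, groups not overlapping).

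LAT1 works as a pair with a heavy chain encoded by Slc3a2, which belongs to the list of 24 other barrier transporters tested. Slc3a2 was at 8550.5, 8525 and 10043 in sham 1, 3 and 5, at 19009.9, 25453 and 18234 in model 1, 3 and 4, and at 11659, 13637 and 16411 in astaxanthin 1, 2 and 3. The 3 groups did not overlap, with the astaxanthin libraries between the others. Slc3a2 rose by a log2 fold change of 1.20 ± 0.20 in model against sham (adjusted p = 0.0191), a call that 5 of the 9 fits without 1 library kept. It was lost without any of the sham libraries and without model 1, with adjusted p up to 0.0933. Astaxanthin against model gave -0.59 for it (adjusted p = 0.548) and astaxanthin against sham 0.61 (adjusted p = 0.286).

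Slco1c1 (chr4:174466631-174513289) encodes OATP1C1, a carrier of thyroxine that in rodents is made by brain endothelium and also by astrocytes and choroid plexus. It was at 3313, 3817 and 3784 in sham 1, 3 and 5, at 742, 1530.2 and 1185 in model 1, 3 and 4, and at 3570.5, 659 and 1012 in astaxanthin 1, 2 and 3. All model libraries were below all sham libraries, and of the astaxanthin libraries 2 were in or below the model range and astaxanthin 1 was at the level of sham. The means were 3638 ± 282 in sham, 1152 ± 395 in model and 1747 ± 1589 in astaxanthin. Model against sham gave a log2 fold change of -1.72 ± 0.56 with an adjusted p of 0.112 by limma and 0.132 by edgeR, and of 0.0308 by DESeq2.

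In limma Slco1c1 passed in some fits that left out astaxanthin 1, which enters the spread shared by all groups. Without astaxanthin 1 alone the model against sham value stayed at -1.72 and its adjusted p was 0.0164. With only the sham and model libraries in the fit the adjusted p was 0.0303. Without both sham 5 and astaxanthin 1 it was not called in model against sham. Astaxanthin against sham gave -1.44 ± 0.56 (adjusted p = 0.354), and -2.15 without astaxanthin 1 (adjusted p = 0.0316). Astaxanthin 1 also held the highest sums of choroid plexus markers (200258), of cerebellum markers (245809) and of 8 astrocyte markers (267755 against 90971 to 204048 elsewhere). The astrocyte markers did not move together there. Aldoc (136826), Slc1a3 (68184) and Slc4a4 (8497) were at their highest, and Slc1a2 (5136) and Ppp1r3c (1766) at their lowest of all libraries. Relative to the sham mean, the mean log2 level of the 8 markers was higher by 0.12 in astaxanthin 1 and by 0.39 in sham 5. Sham 5 held the second highest sum of choroid plexus markers (118365) with a Slco1c1 level of 3784, near the 3817 of sham 3, whose sum was 672. The part of these tissue markers in the Slco1c1 level was not tested.

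Mfsd2a (chr5:135225816-135240690) encodes the carrier of lysophosphatidylcholine that brings docosahexaenoic acid into the brain and holds down vesicle transport in the endothelium. It was at 1306, 1468 and 1819 in sham 1, 3 and 5, at 616, 1564 and 1081 in model 1, 3 and 4, and at 907, 1076 and 2603 in astaxanthin 1, 2 and 3. The groups overlapped: model 3 lay among the sham libraries and astaxanthin 3 was the highest of the 9. Model against sham gave a log2 fold change of -0.58 with a 95% interval of -1.60 to 0.44 (adjusted p = 0.469), so a 2-fold decrease was not resolved from no change.

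Abcg2 (chr4:87745319-87802409) encodes the breast cancer resistance protein, an efflux pump on the blood side of the endothelium. It was at 873, 902 and 319 in sham 1, 3 and 5, at 166, 1237 and 394 in model 1, 3 and 4, and at 1036, 135 and 431 in astaxanthin 1, 2 and 3. Every group held both high and low libraries, from 319 to 902 in sham, 166 to 1237 in model and 135 to 1036 in astaxanthin. The log2 fold change of model against sham was -0.54 with a 95% interval of -2.59 to 1.50 (adjusted p = 0.751), and it was 0.15 without model 1.

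**Figure D2:**
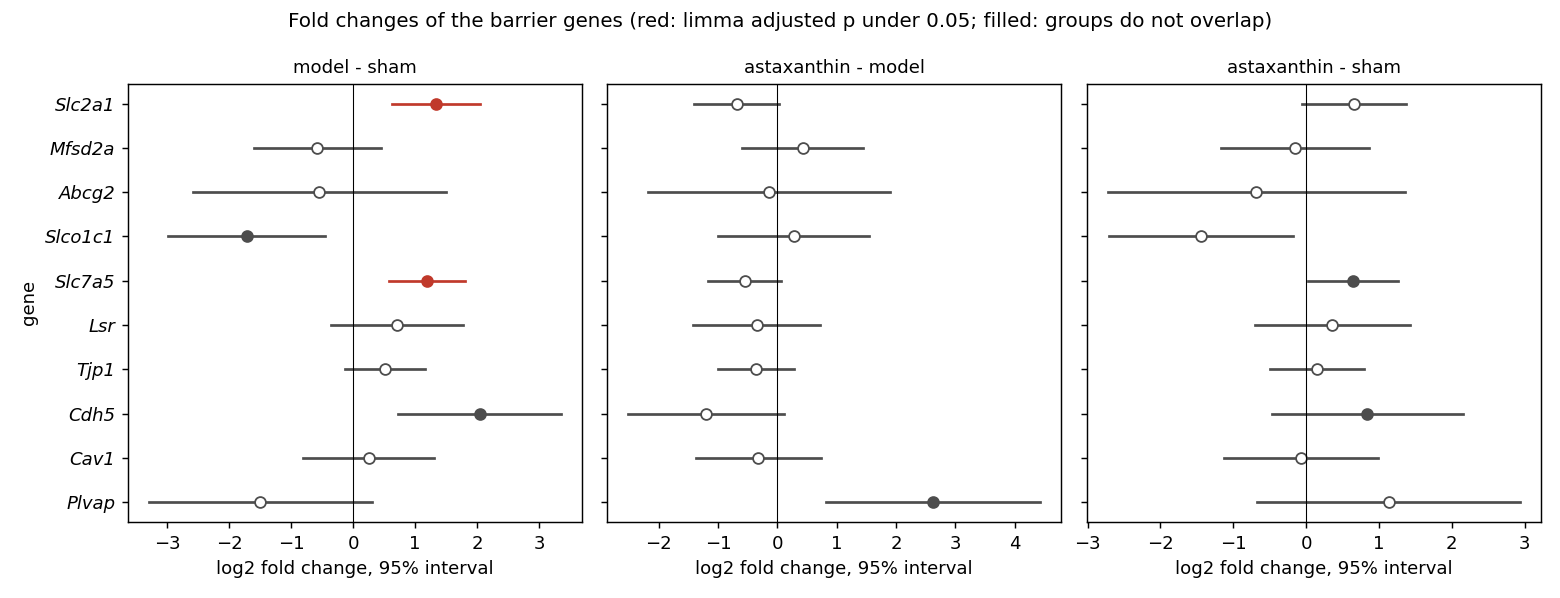
Log2 fold change of each of the 10 genes in the 3 comparisons (points, limma estimate on log2(value + 1), filled where the groups did not overlap and red where the adjusted p was under 0.05; bars, 95% interval, not adjusted for the number of genes). In model against sham the intervals of Slc2a1, Slc7a5, Cdh5 and Slco1c1 do not cross 0; nor does that of Plvap in astaxanthin against model, nor those of Slco1c1 and Slc7a5 in astaxanthin against sham.

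Of the junction genes, Cdh5 (chr19:815411-854368) encodes VE-cadherin, the adhesion molecule of endothelial adherens junctions. It was at 633, 893 and 758 in sham 1, 3 and 5, at 2240.1, 8638 and 1551 in model 1, 3 and 4, and at 1202, 2036 and 1011 in astaxanthin 1, 2 and 3. Every library with an occlusion was above every sham library, and model 3 was far above the rest. The means were 761 ± 130.1 in sham, 4143 ± 3908 in model and 1416 ± 545 in astaxanthin. Model against sham gave 2.04 ± 0.58 with an adjusted p of 0.0807 by limma, 0.0613 by edgeR and 0.00109 by DESeq2. Without model 3 it was 1.30 (adjusted p = 0.0742). Of the 9 limma fits that left out 1 library, 1 called Cdh5, at an adjusted p of 0.0435. The highest adjusted p of these fits was 0.229, and their log2 fold changes ran from 1.30 to 2.54. Astaxanthin against model gave -1.20 ± 0.58 (adjusted p = 0.567), and -0.46 without model 3.

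General endothelial markers, like Cdh5, were highest in model 3. Relative to the sham mean, the mean log2 level of the 10 endothelial markers was higher by 0.88, 3.04 and 0.69 in model 1, 3 and 4 and by 0.54, 0.90 and 0.53 in astaxanthin 1, 2 and 3. All 10 had a positive log2 fold change in model against sham, and 1 of the 10 was called, Ecscr, an endothelial surface protein (3.72, adjusted p = 0.0153). The 10 did not rise evenly. The direction of Emcn rested on model 3 (1166), as model 1 and 4 (130 and 134) were below every sham library (256 to 275).

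Tjp1 (chr1:118849838-119094432) encodes ZO-1, the scaffold that ties tight junctions to the cytoskeleton in endothelium and in many other cells. It was at 8936, 8163 and 8726 in sham 1, 3 and 5, at 8661, 17059 and 12450.0 in model 1, 3 and 4, and at 7294, 13048 and 9179 in astaxanthin 1, 2 and 3. Model 1 lay among the sham libraries, so the groups overlapped, and the sham libraries lay between 8163 and 8936. For model against sham the log2 fold change was 0.51 with a 95% interval of -0.14 to 1.16 (adjusted p = 0.307).

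Lsr (chr1:86186431-86201952) encodes angulin-1, which marks the corners where 3 cells meet. It was at 589, 558 and 757 in sham 1, 3 and 5, at 645, 2259 and 749.9 in model 1, 3 and 4, and at 1179, 680.3 and 657 in astaxanthin 1, 2 and 3. Model 3 and astaxanthin 1 were high and the other 7 libraries lay between 558 and 757. The log2 fold change was 0.71 in model against sham, with a 95% interval of -0.35 to 1.77 (adjusted p = 0.388).

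Of the vesicle and fenestra genes, Cav1 (chr4:45634918-45673705) encodes caveolin-1, the coat protein of caveolae. It was at 2024, 1696 and 1888 in sham 1, 3 and 5, at 1576, 5153 and 1337 in model 1, 3 and 4, and at 1517, 2395 and 1540.1 in astaxanthin 1, 2 and 3. Model 3 was the highest library, and the other model libraries were below every sham library. The log2 fold change of model against sham was 0.25 ± 0.46 (adjusted p = 0.780), and it was -0.36 without model 3, so its direction rested on that library.

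Plvap (chr16:18184975-18197301) encodes the protein of the diaphragms that span fenestrae; it is scarce in mature barrier vessels and present in the fenestrated vessels of the choroid plexus. It was at 358, 114 and 355 in sham 1, 3 and 5, at 55.9, 80.3 and 140.4 in model 1, 3 and 4, and at 1833, 283 and 295 in astaxanthin 1, 2 and 3. All astaxanthin libraries were above all model libraries, and astaxanthin 1 was the highest of the 9. The means were 276 ± 140.2 in sham, 92.2 ± 43.5 in model and 804 ± 891 in astaxanthin. Astaxanthin against model gave 2.63 ± 0.79, with an unadjusted limma p of 0.00949 and an adjusted p of 0.548, and 1.74 without astaxanthin 1. The value for model against sham was -1.50 ± 0.79 (adjusted p = 0.286), with sham 3 inside the model range. Astaxanthin 1 held the highest sum of choroid plexus markers, 200258, while sham 1 had a Plvap level like that of sham 5 (358 and 355) at sums of 979.5 and 118365. The part of choroid plexus tissue in the Plvap level was not tested.

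In astaxanthin against model none of the 10 genes was called by limma or edgeR, nor by DESeq2 among the 9 to which it gave an adjusted p; it gave none to Plvap, in any comparison. Over all genes limma and edgeR called 0 (0% of 17770), while 1579 had an unadjusted limma p under 0.05 and DESeq2 called 206 (1.16%). Of the 10 genes Plvap had groups that did not overlap, where 5.72% of all genes were higher without overlap and 7.24% lower. The log2 fold changes were -1.20 for Cdh5, -0.68 for Slc2a1, -0.55 for Slc7a5, -0.36 for Tjp1, -0.35 for Lsr, -0.32 for Cav1, -0.14 for Abcg2, 0.27 for Slco1c1, 0.43 for Mfsd2a and 2.63 for Plvap. This comparison shares the model libraries with model against sham. The median of the 10 genes was -0.33, against -0.01 over all genes.

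In astaxanthin against sham 0 of the 10 genes were called (Plvap untested by DESeq2), where limma called 0.276% of all genes (0.236% higher and 0.0394% lower), edgeR 0% and DESeq2 4.45%; by limma 2 of the 10 had an unadjusted p under 0.05, as did 12.3% of all genes. Slc7a5 and Cdh5 were higher in all astaxanthin than in all sham libraries (13.0% of all genes were higher without overlap), with log2 fold changes of 0.64 and 0.84. Without astaxanthin 1, Slco1c1 passed the threshold (-2.15, adjusted p = 0.0316), and without astaxanthin 1 and model 3 Slc2a1 passed it as well (0.95, adjusted p = 0.0402). The median of the 10 genes was 0.26, against 0.04 over all genes.

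To set the 10 genes against the endothelial markers of each library, the mean log2 level of these 10 markers was subtracted from the log2 level of each gene. This mean is a level of RNA and not a count of cells. The mean of these markers was higher by 1.54 in model than in sham, so a gene whose level did not change falls by that much on this scale, and the median difference over all genes tested was -1.52. On this scale 7 of the 10 genes were lower in every model than in every sham library, beside 64.3% of all genes, so this count is near the background. Cdh5 was higher without overlap, by 0.50, beside 2.31% of all genes. With Pecam1 and Tie1 alone in place of the 10 markers, its groups overlapped and its difference was 0.31 (exact permutation p = 0.4). With 3 libraries against 3 the smallest exact permutation p is 0.1 (two-sided), so no difference on this scale could pass 0.05.

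Read against the median of -1.52, Slco1c1 (-3.25), Plvap (-3.03), Mfsd2a (-2.12) and Abcg2 (-2.08) lay below it. Cav1 (-1.29), Tjp1 (-1.03), Lsr (-0.83), Slc7a5 (-0.34), Slc2a1 (-0.20) and Cdh5 (0.50) lay above it. The subtraction shifts the mean difference of every gene by the same 1.54. These places therefore repeat those of the unsubtracted log2 fold changes against their median of 0.02, and add nothing about the markers. Slc2a1 and Slc7a5 overlapped between sham and model (exact permutation p = 0.8 and 1), and without model 3 their differences were 0.31 and 0.57. Slco1c1 relative to the markers was 2.97, 3.12 and 3.06 in sham 1, 3 and 5, -0.12, -1.24 and 0.75 in model 1, 3 and 4, and 2.49, -0.31 and 0.68 in astaxanthin 1, 2 and 3. Without model 3, the library with the highest endothelial sum, its difference between model and sham was -2.73. Differences without model 3 cannot be read against -1.52, as the markers were higher than in sham by only 0.88 and 0.69 in model 1 and 4. The unsubtracted log2 fold changes without model 3 were -1.95 for Slco1c1, 1.10 for Slc2a1 and 1.35 for Slc7a5.

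In astaxanthin against model the mean of the markers differed by -0.88, and the median difference over all genes was 0.87. There 2 of the 10 genes were higher without overlap, Cav1 by 0.56 and Plvap by 3.51, beside 10.6% of all genes higher and 0.647% lower. Cav1 thus lay below the median of all genes and Plvap above it, as both did without the subtraction. With Pecam1 and Tie1 alone in place of the 10 markers, 1 of the 10 genes did not overlap. In astaxanthin against sham the median over all genes was -0.62, and 3 of the 10 genes were lower without overlap, Slco1c1 by -2.10, Cav1 by -0.73 and Tjp1 by -0.50, beside 45.3% of all genes lower and 2.40% higher.

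**Figure D3:**
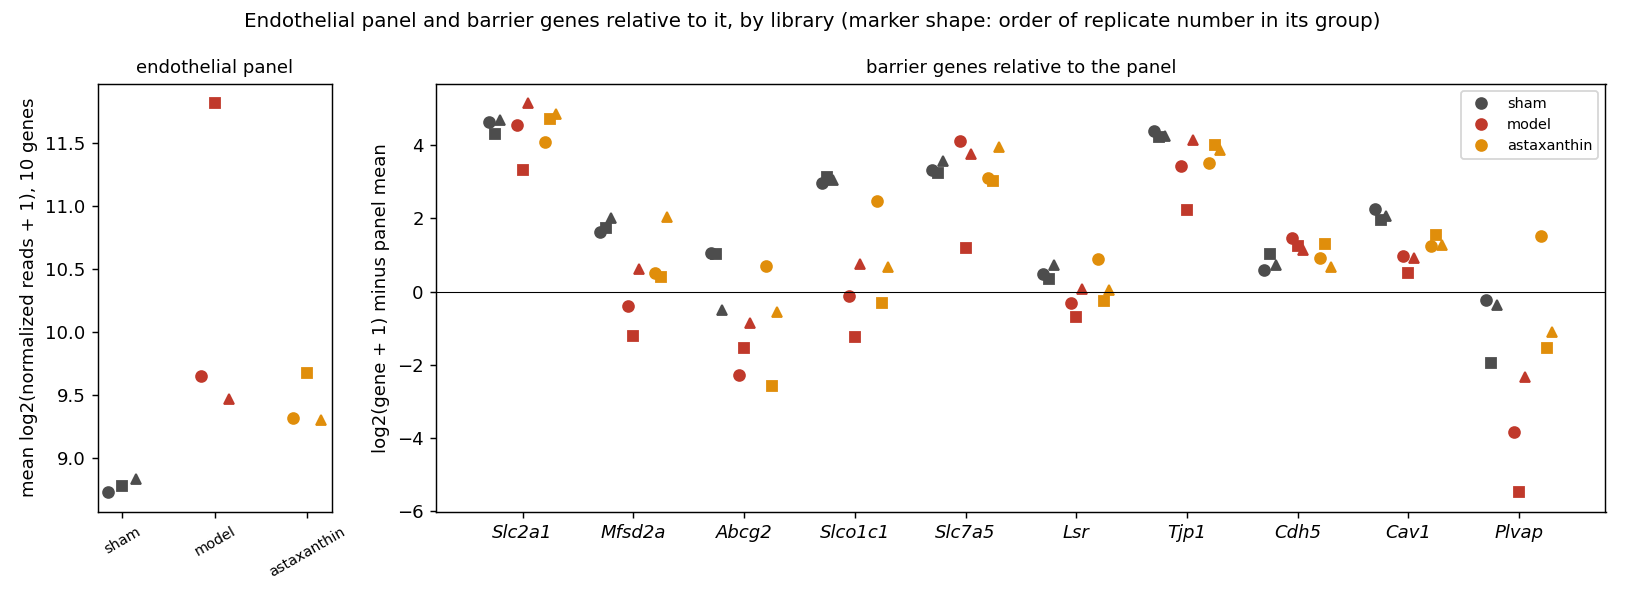
Left, mean log2(normalized reads + 1) of 10 endothelial markers in each library; right, the same log2 level of each of the 10 barrier genes minus that mean, 1 point a library, in 3 colours for sham, model and astaxanthin. The markers were highest in model 3; 7 of the 10 genes were lower in all model than in all sham libraries, as were 64.3% of all genes, whose median difference was -1.52.

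Other genes of the barrier were described from lists chosen with earlier results of these data known. Their counts in model against sham stand beside 3.45% of all genes called higher and 1.32% lower and a median of 0.02 over all genes. Of 24 other transporters tested, 2 were called higher (8.33%) and 0 lower, with a median log2 fold change of -0.04. Beside Slc3a2, described above, this was Slc7a1, a carrier of cationic amino acids, at 3005, 3384 and 3143 in sham 1, 3 and 5, 6313, 5235 and 6155 in model 1, 3 and 4 and 3239, 5030.4 and 5215 in astaxanthin 1, 2 and 3. It rose by 0.89 ± 0.20 (adjusted p = 0.0450), a call kept in 1 of the 9 fits without 1 library, the fit without astaxanthin 1.

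Of 14 other tight junction genes, 0 were called in either direction and the median was -0.40. The smallest p was that of Esam, an endothelial adhesion molecule, at 1.79 (adjusted p = 0.102). Of 10 other adherens junction genes, 0 were called and the median was 0.61, with the smallest p for Jup, which encodes plakoglobin, at 0.84 (adjusted p = 0.0632, and 0.0350 without astaxanthin 1).

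Of 6 other caveola and vesicle genes, 3 were called higher and 0 lower, beside 3.45% and 1.32% of all genes. All 6 had a positive log2 fold change, with a median of 1.24, as had all 10 endothelial markers, with a median of 1.39. The direction of Cavin2 rested on model 3 (2617), as model 1 and 4 (438 and 496) were below every sham library (582 to 916). Ehd2, an ATPase at the neck of caveolae, was at 428, 419 and 485 in sham 1, 3 and 5, 1461, 4780.1 and 1554 in model 1, 3 and 4 and 770.1, 1644 and 1067 in astaxanthin 1, 2 and 3. It rose by 2.32 ± 0.46 (adjusted p = 0.0314) and was called in 4 of the 9 fits without 1 library, including that without model 3. Its relative Ehd4 rose by 1.47 ± 0.33 (adjusted p = 0.0440) and Cav2, the partner of caveolin-1 in caveolae, by 1.21 ± 0.28 (adjusted p = 0.0465). Ehd4 kept its call in 2 of the 9 fits and Cav2 in 1.

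Cav2 was at 1048, 844 and 1189.5 in sham 1, 3 and 5, at 1907, 3420 and 2021 in model 1, 3 and 4 and at 1530.4, 2271 and 2307 in astaxanthin 1, 2 and 3. Its model libraries did not overlap its sham libraries, unlike those of Cav1. In model 3, where these genes were highest, the sum of 6 fibroblast markers was also highest (59343), as was that of 5 smooth muscle markers (22290.0 against 2965 to 11711 elsewhere), cell types that carry caveolae as well. Their part in the result was not tested.

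Of 21 genes of the Wnt pathway and other regulators of the barrier, 2 were called higher (9.52%, beside 3.45% of all genes) and 0 lower, with a median of 0.50 against 0.02 over all genes. Ppard, a nuclear receptor for fatty acids, rose by 0.98 ± 0.21 (adjusted p = 0.0369), and Tspan12, a tetraspanin that serves Norrin signalling through Frizzled-4, by 0.86 ± 0.19 (adjusted p = 0.0428). They were called in 3 and 2 of the 9 fits without 1 library. In astaxanthin against model none of the genes of these 5 lists was called; the smallest p of each list belonged to Slc3a2, Tjp3 (1.86), Nectin3 (-0.51), Ehd4 (-0.88) and Ppard (-0.54), with adjusted p from 0.548 to 0.622. In astaxanthin against sham none was called either, the smallest p of each list being those of Slc3a2, Ildr2 (-1.25), Jup (1.12), Cav2 (0.98) and Wnt7a (-1.33), with adjusted p from 0.106 to 0.465.

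**Figure D4:**
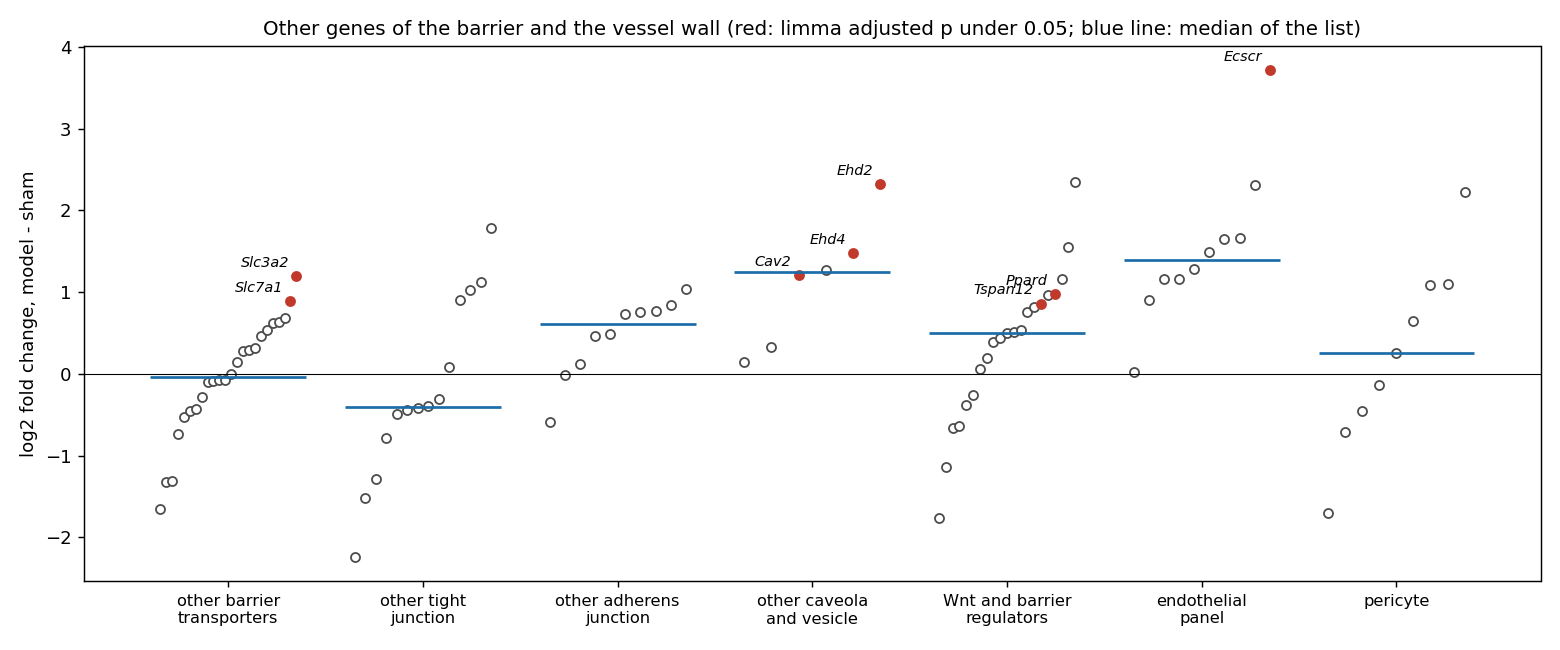
Log2 fold change in model against sham of each tested gene of the 5 barrier lists and of the endothelial and pericyte markers, 1 point a gene, sorted within a list; blue lines are medians, and red named points passed an adjusted p of 0.05 by limma. Slc3a2, Slc7a1, Ehd2, Ehd4, Cav2, Ppard, Tspan12 and Ecscr were called, all higher, and 0 pericyte genes.

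Levels were compared between the 10 genes per kilobase of transcript, on the scale of the normalized reads. In sham Slc2a1 was first with 4009.7 ± 574 reads per kilobase, followed by Slco1c1 (1345 ± 104), Slc7a5 (1325 ± 207) and Tjp1 (1289 ± 58.5), which did not differ from each other beyond their SD. Mfsd2a (723 ± 124) and Cav1 (712 ± 62.8) came next, then Abcg2 (323 ± 152) and Lsr (317 ± 52.9), and Cdh5 (213 ± 37.6) and Plvap (142 ± 72.3) were last. In model Slc2a1 (10462 ± 3437) and Slc7a5 (3085 ± 881) were first and Tjp1 (1903 ± 626) in place 3, while Slco1c1 stood in place 8 (426 ± 146) and Plvap in place 10 (43.4 ± 25.7). Cdh5 stood in place 4 in model with 1302 ± 1313, an SD as large as the mean. In astaxanthin Slc2a1 (6539 ± 2095), Slc7a5 (2116 ± 639) and Tjp1 (1472 ± 441) led again.

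The table of transcripts listed 23 transcripts of the 10 genes, of which 19 were tested and 0 were called in each comparison; of all 32824 transcripts tested, 0.689% were called in model against sham, 0.0518% in astaxanthin against model and 0.204% in astaxanthin against sham. Mfsd2a, Abcg2 and Slc7a5 had 1 transcript each. Shares of reads between transcripts of a gene are estimates that depend on the reads unique to each. Tjp1-204, the transcript with the longest span on the chromosome, held 64.9%, 72.2% and 47.8% of the reads of Tjp1 in sham 1, 3 and 5, 64.7%, 31.1% and 74.2% in model 1, 3 and 4, and 26.5%, 69.5% and 71.6% in astaxanthin 1, 2 and 3. It was low in model 3 and astaxanthin 1, where Tjp1-203 held 61.8% and 68.2%. Both libraries stood apart in the tissue markers given above, and the part of that difference in these shares was not tested.

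Plvap-201 was listed at 0 in all sham libraries and in model 4, but held 83.3% and 78.2% of the Plvap reads in model 1 and 3 and 5.2% to 11.4% in the astaxanthin libraries. The shares in model 1 and 3 rest on few reads. There Plvap-201 was at 46.0 and 63.3 normalized reads and Plvap-202 at 9.2 and 17.6. Cav1-202 held all reads of Cav1 in 8 libraries, while in model 4 all were assigned to Cav1-201. Cdh5-202 held 6.6% to 32.0% in sham, 6.5% to 42.1% in model and 26.4% to 40.4% in astaxanthin.

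**Figure D5:**
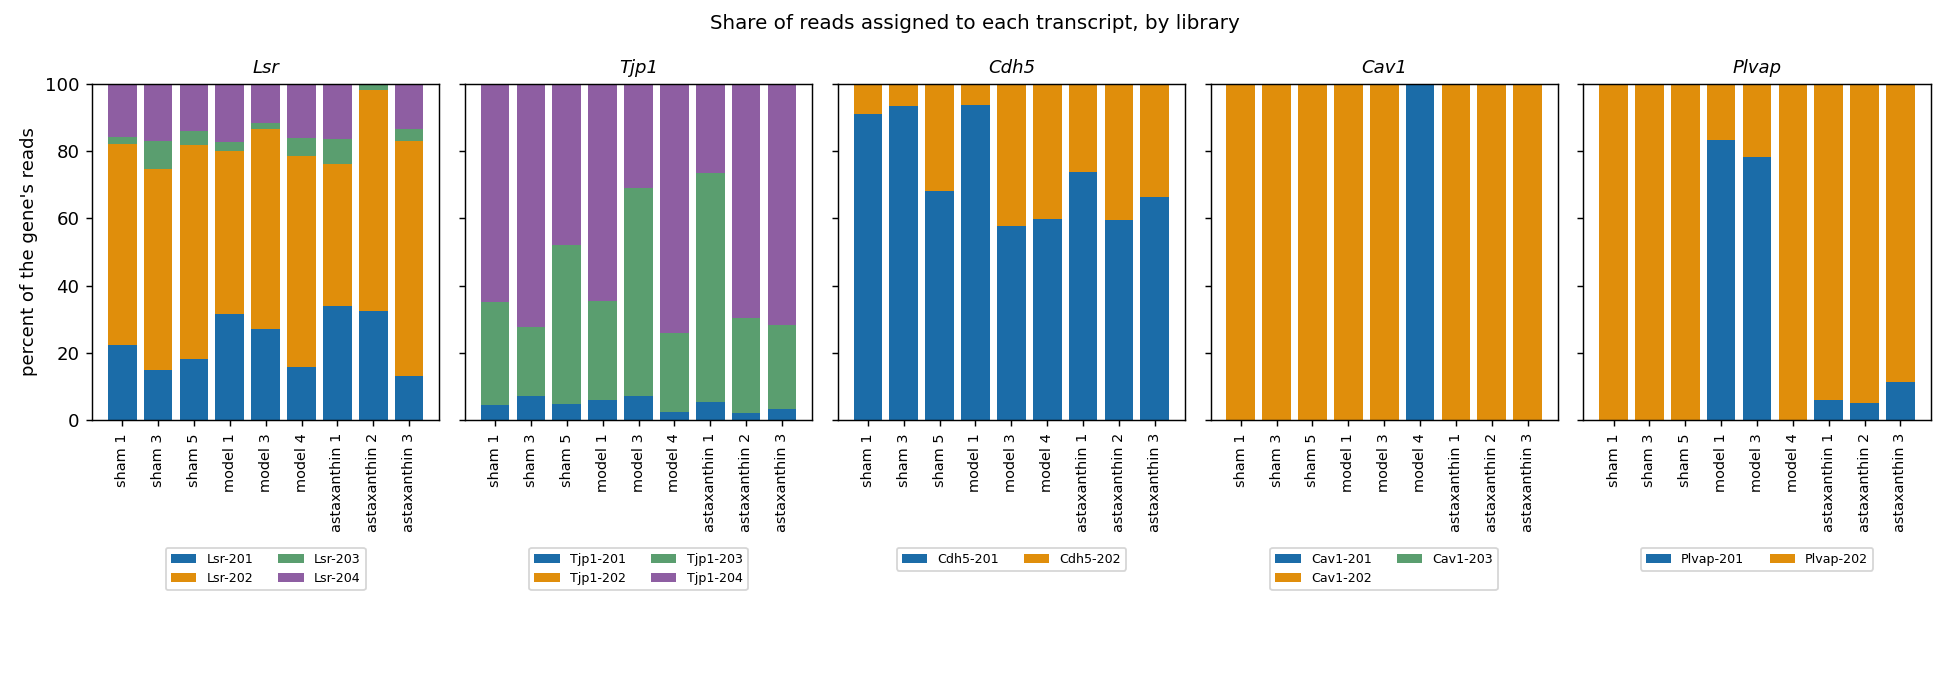
Percent of the reads of Lsr, Tjp1, Cdh5, Cav1 and Plvap assigned to each of their transcripts, in each of the 9 libraries (stacked bars, each summing to 100). Tjp1-204 was low in model 3 and astaxanthin 1, and Cav1 was assigned to Cav1-201 in model 4 and to Cav1-202 elsewhere.

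The genes whose pattern over the 9 libraries was nearest to each of the 10 were found by the root mean square difference of centred log2 levels among 13706 genes with a mean of at least 100 normalized reads. This is a description of 9 libraries that share groups and tissue differences. Nearest to Slc2a1 were Rest and Cttnbp2nl (0.14 each), to Slc7a5 Hectd2 (0.16) and Pabpc4 (0.17), to Slco1c1 Acss1 (0.21) and Klf15 (0.23), to Mfsd2a the gene listed as ENSRNOG00000024506 (0.25) and Ggt1 (0.26), and to Abcg2 P2ry1 (0.52) and Gpcpd1 (0.58). Nearest to Cdh5 were Esam (0.23) and Nid2 (0.27), to Tjp1 Bmp2k (0.093) and Wipf1 (0.14), to Lsr Spdl1 and Pgghg (0.15 each), to Cav1 Antxr1 (0.20) and Mylk (0.21), and to Plvap Epn3 (0.49) and Wnt3 (0.51). Among the 10 genes themselves Slc2a1 and Tjp1 were the closest pair (0.37), and Plvap stood farthest from its nearest, Slco1c1 (1.30). These distances are not scaled for the spread of a gene about its own mean. That spread was smallest for Tjp1 (0.37) and largest for Plvap (1.41), so the 1.30 shows little likeness to Slco1c1.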

How the data were processed

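RNA sequencing of 9 brain libraries (3 groups of 3) was used as deposited. The tools STAR, StringTie, FastQC and DESeq2 and the build rn7 are those of the submitters' processing notes; versions, and whether counting used the strand, were not stated. The signal values the authors deposited are reads divided by a factor of each library: 100% were whole multiples of 1 value per library within 0.01, so whole reads could be recovered for edgeR 4.0.16 and DESeq2 1.42.0, run as alternatives. The main test was limma 3.58.1 (R 4.3.3) on log2(value + 1) with trend and robust options, all 9 libraries in 1 fit with group as the only term, over the 17770 genes that reached 0.5 in 3 or more libraries, two-sided, Benjamini-Hochberg adjusted over all of them, threshold 0.05. All 10 barrier genes passed this filter. A fold change on the log2(value + 1) scale understates that of low genes. A count model was not the main test because the deposited values are normalized. Levels per kilobase divide reads by transcript length, in Python 3.11.15.

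The 10 genes, the lists and the tests were chosen with earlier results of these data known. All 10 are named whatever their values. From each barrier list up to 4 called genes with the smallest p are named, or, where none passed, the 1 with the smallest p. Cell type lists are given by counts and sums, with single markers named where they went different ways. Replicate numbers were not used as pairs in the main test. Abcb1a, Cldn5 and Ocln were not analysed here. The script was tested on simulated data. Positions are those of the deposited table. RefSeq (GRCr8) was used for promoters and names.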

Additional observations from a re-analysis of the deposited data

How the results depend on the processing

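The log2 fold changes of the 10 genes and of the named list genes were recomputed under 21 other settings, 1026 values in all (DESeq2 gave no adjusted p for Plvap, so it has 20 in each comparison): 888 kept direction and side of the threshold, 89 kept direction and lost the call, 21 kept direction and gained it, and 28 reversed. The 888 include genes that were not called and stayed so, and only called genes could lose a call. In model against sham Slc2a1 and Cav2 lost theirs in 12 of the 21 settings each. Slc7a1, Ehd4 and Tspan12 lost it in 11 each, Slc7a5 in 10, Ppard in 9, Ehd2 in 8 and Slc3a2 in 5. In model against sham, 848 genes were called, and 2920 by DESeq2, 521 without trend and robust options, 2632 without astaxanthin 1 and model 3, 406 without sham 5 and astaxanthin 1, and 73 to 1611 when 1 library was left out. Of the 10 genes 2 were called, and 1 with no filter on low values (Slc7a5), 4 by DESeq2, 0 without trend and robust options, 4 without astaxanthin 1 and model 3, 0 without sham 5 and astaxanthin 1, and 0 to 3 when 1 library was left out. In astaxanthin against model the 0 genes called became 206 by DESeq2, 8 without trend and robust options, and 0 to 3 when 1 library was left out; relative to the endothelial markers, the 2 genes without overlap became 1 with Pecam1 and Tie1 only and 2 to 5 when 1 library was left out. In astaxanthin against sham the 49 genes called became 75 with a pseudocount of 0.1, 19 with a pseudocount of 5, 0 by edgeR, 791 by DESeq2, 4 with only the 2 groups compared, 691 without astaxanthin 1 and model 3, 78 without sham 5 and astaxanthin 1, and 1 to 149 when 1 library was left out. Of the 10 genes none was called there, but 2 without astaxanthin 1 and model 3 and 0 to 1 when 1 library was left out; relative to the markers the 3 without overlap became 3 to 6. The cause of these differences was not tested.

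Log2 fold changes that reversed were not called in either setting. In model against sham, when 1 or 2 libraries were left out, Cav1 ranged from -0.36 to 0.61 and Abcg2 from -1.30 to 0.15. In astaxanthin against model, Slco1c1 ranged from -0.43 to 0.78, Abcg2 from -0.84 to 0.63, Mfsd2a from -0.038 to 1.03, Lsr from -0.69 to 0.22, Tjp1 from -0.61 to 0.076 and Cav1 from -0.68 to 0.40. There, without astaxanthin 1 and model 3, Slco1c1 was -0.20, Tjp1 0.076 and Cav1 0.40. In astaxanthin against sham, Mfsd2a ranged from -0.62 to 0.27, Abcg2 from -1.87 to 0.083, Tjp1 from -0.072 to 0.36 and Cav1 from -0.29 to 0.052. There, without astaxanthin 1 and model 3, Mfsd2a was 0.14 and Cav1 0.043, and by edgeR Mfsd2a was 0.025.

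With the replicate number as a block, 0 genes were called in each comparison, 0 of the 10 genes among them, and Abcg2 was 0.56 in astaxanthin against model, Mfsd2a 0.15 and Tjp1 -0.062 in astaxanthin against sham. Sham 5, model 4 and astaxanthin 2 share their number with no other library, so they do not inform the group differences of this fit. It rests on the libraries numbered 1 and 3 and had little power, so its lack of calls says little about the calls above. Deviations of same-numbered libraries correlated at r = -0.12 to 0.07, and those of differently numbered libraries at -0.17 to 0.16. The same-numbered libraries were thus not more alike, but with 3 libraries a group this cannot exclude a pairing. With 3 libraries a group, differences within the intervals given were not resolved, and a p over the threshold does not show that levels were equal.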
